A study of Mus musculus with 6 samples.

Results

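Col4a1, Col4a2, Col4a3, Col18a1, Lama5, Lamb1, Lamb2, Lamc1, Nid1 and Hspg2 encode the main collagens, laminins and linker proteins of the kidney basement membrane. These 10 genes were taken by symbol from the 56923 gene identifiers counted in mouse kidney RNA-seq libraries. Each library came from a whole snap-frozen kidney of a male mouse. Pkd1 KO mice (n = 3) carried Pkd1flox/flox, Pax8rtTA and Tet-O-Cre, and control mice (n = 3) carried Pkd1flox/flox and Tet-O-Cre without Pax8rtTA. Pax8rtTA switches Tet-O-Cre on in tubule cells when doxycycline is present, and cells that the Pax8 promoter does not serve keep Pkd1. Both groups carried the floxed Pkd1 alleles, and the labels give doxycycline at 2 mg/ml with 5% sucrose in drinking water from postnatal day 28 to day 42 and kidney collection at 10 weeks of age. The controls were described as non-cystic. The study set kidneys that had lost tubular Pkd1, the gene mutated in most dominant polycystic kidney disease, against kidneys that kept it.

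A basement membrane is a thin sheet of matrix under epithelial and endothelial cells and around some other cells. Laminins, each an assembly of an alpha, a beta and a gamma chain, form one network, and collagen IV, an assembly of alpha chains, forms another. Nidogen (Nid1) and perlecan (Hspg2) join the networks, and collagen XVIII (Col18a1) is a heparan sulfate proteoglycan that carries the endostatin fragment. Col4a1 and Col4a2 chains assemble together in nearly all basement membranes. Col4a3 chains assemble with Col4a4 and Col4a5 chains, chiefly in the glomerulus and parts of the tubule, and mutations in these chains cause Alport syndrome. The glomerular laminin is made of the Lama5, Lamb2 and Lamc1 chains, whereas Lamb1 is the usual beta chain of other kidney basement membranes. Loss of LAMB2 in people causes Pierson syndrome, a congenital nephrotic disease.

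RefSeq promoter windows (mouse build GRCm38.p6, 250 bases before to 50 after the annotated start) matched 8 of the 10 genes, with 2 windows for Col18a1. Col4a3 and Lamc1 had no window. The 4 windows below are shown because Col4a1 and Col4a2 are divergent neighbours whose windows overlap by 78 bases, while the windows of Lamb1 and Lamb2, the beta chains, differ in base composition and motifs. Col4a1 lies at chr8:11312777-11313076 on the minus strand, Col4a2 at chr8:11312555-11312854 on the plus strand, Lamb1 at chr12:31265043-31265342 on the plus strand and Lamb2 at chr9:108479612-108479911 on the plus strand. Capitals mark matches on either strand to a GC box, spelled GGGCGG. They also mark a CCAAT box, named by its letters, and a TATA box, spelled TATAAA. No match overlapped another.
Col4a1: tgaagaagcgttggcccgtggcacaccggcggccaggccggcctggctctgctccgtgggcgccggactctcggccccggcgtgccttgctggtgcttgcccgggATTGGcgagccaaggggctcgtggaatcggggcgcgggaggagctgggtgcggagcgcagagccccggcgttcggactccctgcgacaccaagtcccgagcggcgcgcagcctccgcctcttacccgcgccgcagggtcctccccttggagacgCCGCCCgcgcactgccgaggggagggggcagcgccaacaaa
Col4a2: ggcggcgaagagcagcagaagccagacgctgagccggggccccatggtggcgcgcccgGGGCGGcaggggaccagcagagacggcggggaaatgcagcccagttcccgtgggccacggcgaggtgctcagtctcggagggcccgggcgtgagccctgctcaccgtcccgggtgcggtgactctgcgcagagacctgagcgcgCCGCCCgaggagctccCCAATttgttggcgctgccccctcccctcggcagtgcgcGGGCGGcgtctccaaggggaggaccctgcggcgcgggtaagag
Lamb1: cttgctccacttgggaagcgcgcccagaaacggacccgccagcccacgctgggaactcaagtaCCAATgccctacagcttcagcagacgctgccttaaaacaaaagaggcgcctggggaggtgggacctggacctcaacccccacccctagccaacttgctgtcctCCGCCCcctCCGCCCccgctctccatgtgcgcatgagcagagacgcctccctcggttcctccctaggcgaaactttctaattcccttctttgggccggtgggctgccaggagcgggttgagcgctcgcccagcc
Lamb2: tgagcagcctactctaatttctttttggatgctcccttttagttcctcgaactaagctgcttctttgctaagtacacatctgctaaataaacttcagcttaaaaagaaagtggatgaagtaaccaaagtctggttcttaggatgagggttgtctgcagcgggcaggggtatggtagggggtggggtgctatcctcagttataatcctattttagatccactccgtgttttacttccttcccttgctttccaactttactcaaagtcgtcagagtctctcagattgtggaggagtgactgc
The Col4a1 window was 74% GC with 1 GC box and 1 CCAAT box. The Col4a2 window was 73.7% GC with 3 GC boxes and 1 CCAAT box. In the shared 78 bases the windows are reverse complements and hold 1 GC box. The Lamb1 window was 63.7% GC with 2 GC boxes and 1 CCAAT box, and the Lamb2 window, at 44% GC, held none of the motifs. Neither the other windows (Col18a1, Lama5, Nid1 and Hspg2) nor these held a TATA box. Of all 32851 RefSeq windows, 35.7% held a GC box, 37.4% a CCAAT box and 13.6% a TATA box, and their median GC content was 52.7%. These matches describe letters and not binding.

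Gene counts per library were 45020173 to 62983791. All Pkd1 KO libraries carried 1 sequencing project in their names and all control libraries another, and the effect of the project cannot be told apart from that of the genotype. Pkd1 itself, in counts over all its exons, was at 8.77, 9.003 and 10.0 CPM (gene counts scaled to library size) in Pkd1 KO kidneys, against 30.0, 46.4 and 23.6 CPM in control kidneys. Its log2 fold change was -1.85 ± 0.24 (SE; edgeR quasi-likelihood test, adjusted p = 0.00234), and -0.34 ± 0.13 (adjusted p = 0.0644) once GC content and length were fitted. The first principal component of all genes held 70.4% of the variance and parted the groups. Control kidney 2 lay at one end of it, at 92.6, against 24.2 for control kidney 3, and these 2 were the controls that differed most from each other.

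Basement membrane gene counts were lower in Pkd1 KO kidneys. In edgeR's quasi-likelihood test with Benjamini-Hochberg adjustment over 18273 genes, 9 of the 10 genes fell at an adjusted p under 0.05, 0 were higher, and Nid1 did not pass. Of all genes tested, 24.2% were called lower, 22.7% higher and 46.9% either way. The median log2 fold change of the 10 genes was -1.37, between -1.69 for Lamb2 and -0.34 for Nid1, beside 0.026 for all genes. In 9 of the 10 genes every Pkd1 KO library lay below every control library, which held for 30.0% of all genes (31.2% had every Pkd1 KO library above every control). In whole kidney RNA, fewer cells that make a transcript and less of it per cell cannot be told apart. All 10 genes are longer and have more GC than the median gene, though Col4a3 and Nid1, at 50.4% GC, lie near the median of 49.4%. A fit with both properties called 2 of the 10 genes lower, Col4a3 and Lamb2. Of all genes in that fit, 17.3% were called lower and 34.5% either way.

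**Figure D1:**
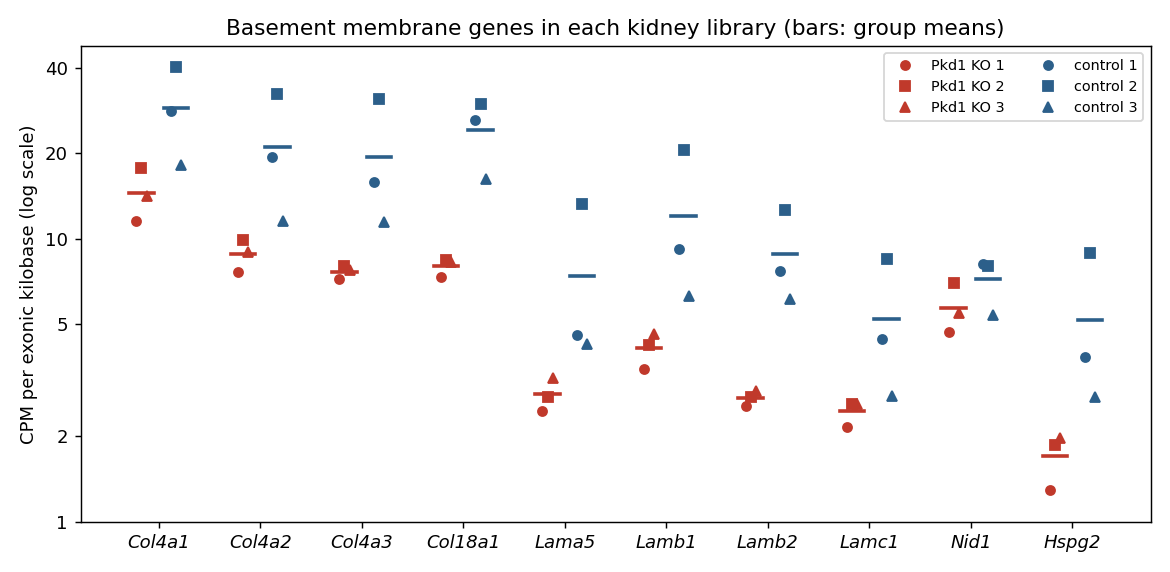
Level of each gene in each library, as CPM per kilobase of exon on a log axis, with Pkd1 KO libraries left of control libraries and bars at group means. All 3 Pkd1 KO points lie below all 3 control points for every gene but Nid1, and control kidney 2 is the highest control for every gene but Nid1.

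Many markers of kidney cell types differed between the groups in the same counts, and their part in the fall of the basement membrane genes was not tested. Of all genes tested, 24.2% were called lower and 22.7% higher in counts, and 17.3% and 17.1% once GC and length were fitted. Called either way were 46.9% of all genes, and from 28.6% (fibroblast and myofibroblast) to 100% (endothelial) of a marker list. With GC and length fitted these were 34.5%, and from 22.2% (podocyte) to 100% (thick ascending limb and distal). Of 9 podocyte markers tested, 7 were called lower and 0 higher, with a summed level of 323 to 364 CPM in Pkd1 KO kidneys and 359.7 to 601 CPM in control kidneys. Once GC and length were fitted, 2 podocyte markers were called lower and 0 higher. Of 9 endothelial markers tested, 7 were called lower and 2 higher, with a summed level of 381 to 388 CPM in Pkd1 KO kidneys and 457 to 533 CPM in control kidneys. Of 7 mesangial and pericyte markers tested, 4 were called lower and 1 higher, with a summed level of 179 to 190.3 CPM in Pkd1 KO kidneys and 216 to 276 CPM in control kidneys. The podocyte sums overlapped between groups, and those of the endothelial and of the mesangial and pericyte markers did not. Clic5, a podocyte marker that was not called, made up a large part of the podocyte sums. It had 144, 146 and 134 CPM in Pkd1 KO kidneys 1 to 3, against 132, 160 and 109 CPM in control kidneys 1 to 3. Once GC and length were fitted, 2 endothelial markers were lower and 1 higher, and 3 mesangial and pericyte markers were lower and 2 higher. Of 8 proximal tubule markers tested, 5 were called lower and 0 higher, at 6122 to 7147 CPM in Pkd1 KO kidneys and 8838 to 14127 CPM in control kidneys. Of 6 thick ascending limb and distal markers tested, 4 were called lower and 0 higher, at 1767 to 2168 CPM in Pkd1 KO kidneys and 4099 to 5197 CPM in control kidneys. Of 6 collecting duct markers tested, 4 were called lower and 1 higher, at 474 to 586 CPM in Pkd1 KO kidneys and 673 to 710.4 CPM in control kidneys. These 3 tubule sums were lower in every Pkd1 KO kidney than in any control kidney. Of all genes taken singly, 30.0% had every Pkd1 KO library below every control, and 31.2% the reverse. With GC and length fitted, 5 proximal tubule, 6 of 6 thick ascending limb and distal and 3 collecting duct markers were lower, and 0 of these were higher. Of 7 fibroblast and myofibroblast markers tested, 1 was called lower and 1 higher, and the sums overlapped, at 163 to 209.8 CPM in Pkd1 KO kidneys and 148 to 196 CPM in control kidneys. Of 8 macrophage markers tested, 1 was called lower and 5 higher, and the sums did not overlap, at 208 to 334 CPM in Pkd1 KO kidneys and 116 to 154 CPM in control kidneys. In the GC and length fit 0 fibroblast markers were lower and 2 higher, and 1 macrophage marker was lower and 5 higher. No marker was at 0 in every library. Abundant genes weigh most in these sums. Slc34a1, a proximal tubule marker, had a mean of 1855 CPM in Pkd1 KO kidneys and 4684 CPM in control kidneys. Lyz2, a macrophage marker, had a mean of 150 CPM in Pkd1 KO kidneys and 23.1 CPM in control kidneys.

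The collagen IV genes Col4a1 and Col4a2 were both lower. Col4a1 (ENSMUSG00000031502, 57.7% GC, 7464 exonic bases) had 86.4, 132 and 105 CPM in Pkd1 KO kidneys 1 to 3, against 210.1, 301 and 136 CPM in control kidneys 1 to 3. The groups did not overlap, and the log2 fold change was -0.998 ± 0.28 (SE), edgeR adjusted p = 0.0185. Col4a2 (ENSMUSG00000031503, 60.6% GC, 6619 exonic bases) had 50.3, 65.3 and 59.6 CPM in Pkd1 KO kidneys 1 to 3, against 129, 214 and 76.7 CPM in control kidneys 1 to 3. Again the groups did not overlap, and the log2 fold change was -1.26 ± 0.32 (SE), edgeR adjusted p = 0.0124. Within each group the same order held for both genes, with control kidney 2 highest and control kidney 3 lowest of the controls. The Col4a1 call was lost without Pkd1 KO kidney 1, Pkd1 KO kidney 3 or control kidney 1 (edgeR adjusted p = 0.077, 0.0605 and 0.0512), and the Col4a2 call without Pkd1 KO kidney 1 (edgeR adjusted p = 0.0556). Once GC and length were fitted, the log2 fold changes were 0.14 ± 0.18 for Col4a1 and 0.038 ± 0.18 for Col4a2 (edgeR adjusted p = 0.578 and 0.882).

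Col4a3, the glomerular and tubular collagen IV chain (ENSMUSG00000079465, 50.4% GC, 9967 exonic bases), was called in counts and, narrowly, with GC and length fitted. It had 71.9, 79.5 and 77.3 CPM in Pkd1 KO kidneys 1 to 3, against 158, 310.1 and 114 CPM in control kidneys 1 to 3. The Pkd1 KO libraries lay close together below the controls, which spread widely. The log2 fold change was -1.35 ± 0.32 (SE) with edgeR adjusted p = 0.00954, and -0.87 without control kidney 2. The value with GC and length fitted was -0.57 ± 0.20 (edgeR adjusted p = 0.0475). That second call was lost when the first strand column was counted (-0.40, edgeR adjusted p = 0.135) and when length was that of the longest transcript (-0.34, edgeR adjusted p = 0.108). It was also lost without any 1 library except control kidney 3, at edgeR adjusted p = 0.133, 0.115 and 0.121 without Pkd1 KO kidneys 1 to 3 in turn, and 0.0726 and 0.0606 without control kidneys 1 and 2. Without control kidney 2 that value was -0.29. Col4a3 shares 563 exonic bases, 5.6% of its length, with C430014B12Rik on the opposite strand. The libraries are not stranded, so reads on these bases cannot be assigned to either gene. The strand columns of Col4a3 summed to 1.15 times its count without regard to strand. That count thus leaves out reads that the strand columns take in. The partner chains were named after their values were seen. Col4a4 had 83.3, 94.5 and 86.5 CPM in Pkd1 KO kidneys 1 to 3, against 155, 321 and 116 CPM in control kidneys 1 to 3, a log2 fold change of -1.16 ± 0.33 (SE) with edgeR adjusted p = 0.0188. Its call was lost without any 1 of the Pkd1 KO kidneys (edgeR adjusted p = 0.0695, 0.0601 and 0.0589), and its log2 fold change was -0.66 without control kidney 2. Col4a5 had 41.7, 56.5 and 48.0 CPM in Pkd1 KO kidneys 1 to 3, against 51.6, 55.3 and 49.5 CPM in control kidneys 1 to 3. Its groups overlapped, at -0.098 ± 0.15 (SE) with edgeR adjusted p = 0.608, and the sign turned to 0.067 under upper-quartile scaling and to 0.42 ± 0.14 (edgeR adjusted p = 0.0406) with GC and length fitted.

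The laminin genes were all lower. Lama5, the alpha chain of most adult kidney laminin (ENSMUSG00000015647, 59.9% GC, 11388 exonic bases), had 28.0, 31.5 and 36.7 CPM in Pkd1 KO kidneys 1 to 3, against 52.2, 151 and 48.4 CPM in control kidneys 1 to 3. Control kidney 2 stood at 2.99 times the mean of the other controls, the widest such gap of the 10 genes. The log2 fold change was -1.38 ± 0.40 (SE) with edgeR adjusted p = 0.0207, and -0.68 without control kidney 2. The call was lost without Pkd1 KO kidney 1 or 2 (edgeR adjusted p = 0.0792 and 0.0739). Its sign turned in the fit of GC and length, at 0.24 ± 0.20 (edgeR adjusted p = 0.381), and in that fit Lama5 was called higher without control kidney 2 (0.49, edgeR adjusted p = 0.0225).

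Lamb1, the broadly used beta chain (ENSMUSG00000002900, 52.5% GC, 9917 exonic bases), had 34.4, 41.7 and 45.6 CPM in Pkd1 KO kidneys 1 to 3, against 91.0, 205 and 62.4 CPM in control kidneys 1 to 3. The groups did not overlap. Lamb1 fell by the test, with a log2 fold change of -1.56 ± 0.38 (SE) with edgeR adjusted p = 0.0107, or -0.95 without control kidney 2. The GC and length fit gave -0.59 ± 0.23 and missed the threshold (edgeR adjusted p = 0.0759). That value was -0.24 without control kidney 2 (edgeR adjusted p = 0.165), and was called at -0.77 without control kidney 3 (edgeR adjusted p = 0.0133).

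Lamb2, the beta chain of the glomerular laminin (ENSMUSG00000052911, 58.8% GC, 6082 exonic bases), had the strongest fall of the 10 genes, with 15.5, 16.7 and 17.5 CPM in Pkd1 KO kidneys 1 to 3, against 46.8, 77.0 and 37.4 CPM in control kidneys 1 to 3. The highest Pkd1 KO library lay under 37.4 CPM, the lowest control. The log2 fold change was -1.69 ± 0.25 (SE) with edgeR adjusted p = 0.00259, and with GC and length fitted -0.61 ± 0.13 (edgeR adjusted p = 0.00812). Lamb2 was called lower in 13 of 13 settings without GC or length terms and in 16 of 16 settings with either or both, and no other of the 10 genes was called in all of them. Across those 16 settings its log2 fold change was between -1.46 and -0.44, and the highest edgeR adjusted p was 0.0383. Its lowest count, 769 in Pkd1 KO kidney 1, was the lowest of the 10 genes in any library.

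Lamc1, the gamma chain shared by most laminins (ENSMUSG00000026478, 53.0% GC, 8272 exonic bases), had 17.8, 21.6 and 21.5 CPM in Pkd1 KO kidneys 1 to 3, against 36.6, 69.8 and 23.0 CPM in control kidneys 1 to 3. Control kidney 3 lay just above the highest Pkd1 KO library. The log2 fold change was -1.09 ± 0.34 (SE) with edgeR adjusted p = 0.029, and -0.59 without control kidney 2. The call was lost without any 1 of the Pkd1 KO kidneys or without control kidney 1 (edgeR adjusted p = 0.102, 0.0804, 0.0695 and 0.0537). In the GC and length fit it was -0.21 ± 0.22 (edgeR adjusted p = 0.471).

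Of the linkers and proteoglycans, Nid1 (ENSMUSG00000005397, 50.4% GC, 6943 exonic bases), which binds laminin and collagen IV, was the exception. It had 32.5, 48.3 and 37.8 CPM in Pkd1 KO kidneys 1 to 3, against 56.5, 55.7 and 37.3 CPM in control kidneys 1 to 3. The groups overlapped, since Pkd1 KO kidneys 2 and 3 lay above control kidney 3. Its log2 fold change was -0.34 ± 0.21 (SE) with edgeR adjusted p = 0.209, and it passed the threshold without control kidney 3 (-0.56, edgeR adjusted p = 0.0191). The same value in the GC and length fit was 0.14 ± 0.17 (edgeR adjusted p = 0.546).

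Hspg2, perlecan (ENSMUSG00000028763, 60.9% GC, 14307 exonic bases, the longest of the 10), had 18.5, 26.8 and 28.2 CPM in Pkd1 KO kidneys 1 to 3, against 54.7, 127 and 39.4 CPM in control kidneys 1 to 3. The groups did not overlap. Its log2 fold change was -1.59 ± 0.39 (SE) with edgeR adjusted p = 0.0112, -0.98 without control kidney 2, and uncalled without Pkd1 KO kidney 1 (edgeR adjusted p = 0.0513). Perlecan turned sign in the GC and length fit, at 0.22 ± 0.16 (edgeR adjusted p = 0.33). Where length was that of the longest transcript, Hspg2 and Lama5 were called higher (0.48 and 0.53, edgeR adjusted p = 0.0188 and 0.0255).

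Col18a1, collagen XVIII (ENSMUSG00000001435, 60.8% GC, 7021 exonic bases), had 51.4, 58.8 and 58.2 CPM in Pkd1 KO kidneys 1 to 3, against 184, 210.1 and 114 CPM in control kidneys 1 to 3. The Pkd1 KO libraries lay close together, and the lowest control was well above them. Control kidney 2 stood out less here than in most of the 10 genes, at 1.41 times the mean of the other controls. Its log2 fold change was -1.60 ± 0.22 (SE) with edgeR adjusted p = 0.00243, and -1.45 without control kidney 2. With GC and length fitted it was -0.32 ± 0.13 (edgeR adjusted p = 0.0795). In that fit Col18a1 was called lower with a loess surface of degree 2 (-0.45, edgeR adjusted p = 0.0202) and without control kidney 2 (-0.34, edgeR adjusted p = 0.047), and was at -0.21 without control kidney 1.

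GC content and exon length moved with the fold change over all genes. The 10 genes have 50.4% to 60.9% GC and 6082 to 14307 exonic bases, against medians of 49.4% and 3787 bases for all genes tested, and 9 of them are in the longest of 4 equal classes of genes. Col4a1, Col4a2, Col18a1, Lama5 and Hspg2 lie in the longest and the most GC-rich of 4 classes. There 616 genes had a median log2 fold change of -1.12, and 78.4% of them were called lower. Col4a3, Lamb1, Lamc1 and Nid1 lie in the longest class and GC class 3, where 981 genes had a median of -0.75 and 60.9% were called lower. Lamb2 lies in the most GC-rich class and length class 3, where 1103 genes had a median of -0.79 and 65.1% were called lower. At the other corner, the shortest and most GC-poor genes had a median of 0.88. Read against 78.4%, the 5 of 5 genes called lower in the first of these classes are not set apart by the call. Lamb2 at -1.69, Lamb1 at -1.56, Col4a3 at -1.35 and Lamc1 at -1.09 lay below their class medians, and Nid1 at -0.34 above its own. In the first class, Col18a1 at -1.60, Hspg2 at -1.59, Lama5 at -1.38 and Col4a2 at -1.26 lay below the median. Col4a1 at -0.998 lay above it.

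**Figure D2:**
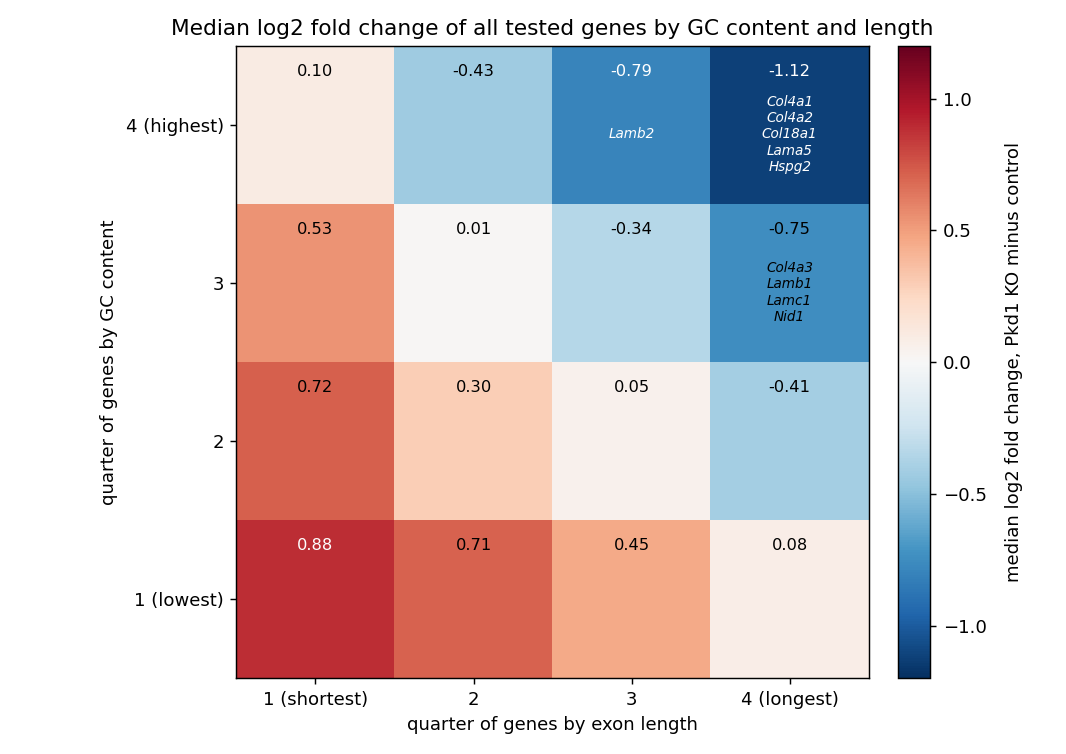
Median log2 fold change (Pkd1 KO minus control) of all tested genes in 4 classes of equal size by exon length (horizontal) and 4 by GC content (vertical), with the 10 genes written in their cells. The median goes from 0.88 for the shortest, most GC-poor genes to -1.12 for the longest, most GC-rich ones, where 5 of the 10 genes lie.

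When each library's dependence on GC and length was fitted as an offset, 2 of the 10 genes were called lower, 0 higher and 8 were not called. In that fit 17.3% of 17785 genes were called lower, 17.1% higher and 34.5% either way. The median log2 fold change of the 10 genes was then -0.087, against 0.00083 for all genes, and 5 of the 10 values were positive. Col4a3, Lamb1 and Lamb2 had the lowest values, between -0.61 and -0.57. Leaving out any 1 of the Pkd1 KO kidneys or control kidney 1 left Lamb2 as the 1 gene of the 10 called in this fit. Without control kidney 2 the 3 genes called were Lamb2 and Col18a1, lower, and Lama5, higher (0.49, edgeR adjusted p = 0.0225). Without control kidney 3 the 3 called were Lamb2, Col4a3 and Lamb1, all lower. The offsets and the genotype share the same libraries, so how much of the fall in counts belongs to either cannot be told apart.

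**Figure D3:**
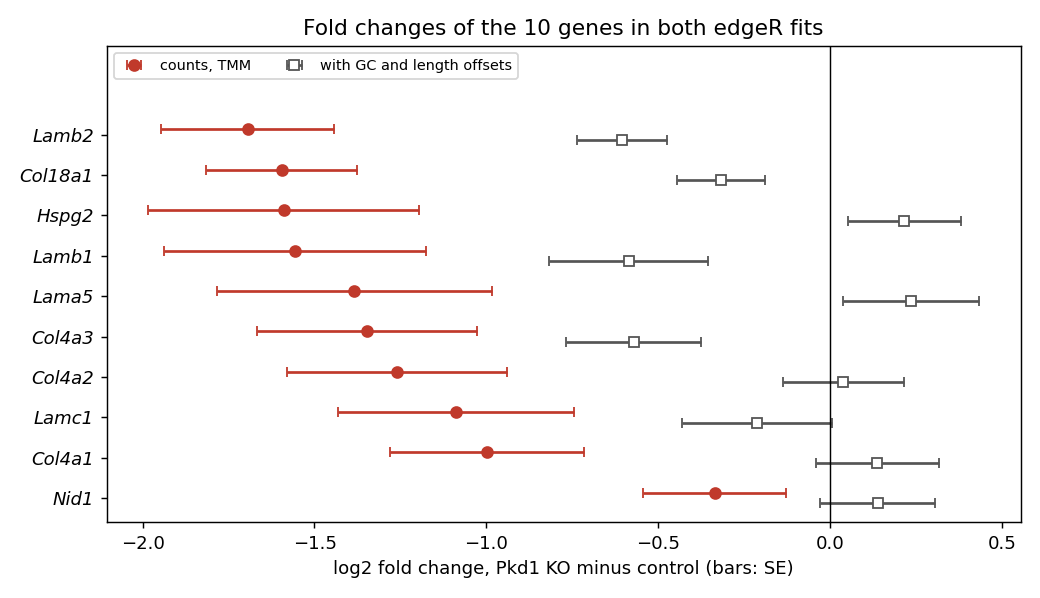
Log2 fold change (Pkd1 KO minus control) of each gene in edgeR's fit of the counts (filled circles) and in the fit with GC and length offsets (open squares), with bars of 1 SE. The filled circles lie between -1.69 and -0.34, and the open squares between -0.61 and 0.24, around 0.

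Levels per kilobase of exon allow for exon length but keep the dependence of fold changes on GC and length. On this scale Col4a1 was the highest of the 10 genes in both groups. Its mean levels were 14.5 and 28.9 CPM per kilobase in Pkd1 KO and control kidneys. Hspg2 was the lowest in both, with mean levels of 1.71 and 5.15 CPM per kilobase. The order by mean level in Pkd1 KO kidneys was Col4a1, Col4a2, Col18a1, Col4a3, Nid1, Lamb1, Lama5, Lamb2, Lamc1 and Hspg2. The order in control kidneys was Col4a1, Col18a1, Col4a2, Col4a3, Lamb1, Lamb2, Lama5, Nid1, Lamc1 and Hspg2. In control kidneys all 9 pairs of neighbours overlapped in range over the libraries, whose overall levels differ. Within each control library 4 of these pairs kept the same order: Col4a1 over Col18a1, Col4a2 over Col4a3, Col4a3 over Lamb1 and Lamb1 over Lamb2. In Pkd1 KO kidneys 4 of 9 pairs overlapped: Col4a2 with Col18a1, Col18a1 with Col4a3, Lama5 with Lamb2 and Lamb2 with Lamc1. Within each Pkd1 KO library all pairs but Lama5 and Lamb2 kept the same order, 8 of 9. Nid1 had rank 5 in Pkd1 KO kidneys and rank 8 in control kidneys, with mean levels of 5.69 and 7.18 CPM per kilobase. Its share of the summed level of the 10 genes was 9.69% ± 0.865 in Pkd1 KO kidneys and 5.53% ± 1.41 in control kidneys (SD, n = 3 each). In control kidneys 1 to 3 that share was 6.38%, 3.90% and 6.32%. Nid1 and Col4a3 have the least GC of the 10 genes, and these levels are not corrected for GC. The Lamb1 level depends on the exon length used, since the union of its exons is 9917 bases and its longest transcript 5784.

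Ratios between partner genes within a library do not depend on library scaling. For 6 ratios of counts per exonic kilobase, with 3 libraries a group, the smallest possible exact permutation p was 0.1. No ratio could therefore pass 0.05, and the test cannot say whether any differed at that level. The log2 ratio of Col4a2 to Col4a1 was -0.70 ± 0.13 in Pkd1 KO kidneys and -0.50 ± 0.17 in control kidneys (SD, exact two-sided permutation p = 0.3). That of Col4a3 to Col4a1 was -0.90 ± 0.24 in Pkd1 KO kidneys and -0.63 ± 0.23 in control kidneys (exact permutation p = 0.2). Its difference was -0.27, and -0.65 in GC and length corrected levels (exact permutation p = 0.1, the smallest possible). The log2 ratio of Lamb2 to Lamb1, glomerular against general beta chain, was -0.58 ± 0.12 in Pkd1 KO kidneys and -0.33 ± 0.34 in control kidneys (exact permutation p = 0.4). In counts the groups overlapped in each of these 3 ratios. Corrected levels gave differences of -0.069 for both Col4a2 to Col4a1 and Lamb2 to Lamb1, against -0.20 and -0.25 in counts. The log2 ratio of Lama5 to Lamc1 was 0.20 ± 0.11 in Pkd1 KO kidneys and 0.44 ± 0.33 in control kidneys (exact permutation p = 0.4), a difference of -0.24 that turned to 0.44 in GC and length corrected levels. That of Col18a1 to Hspg2 was 2.25 ± 0.23 in Pkd1 KO kidneys and 2.37 ± 0.54 in control kidneys (exact permutation p = 0.8), a difference of -0.12 in counts and -0.53 in corrected levels (exact permutation p = 0.2). Nid1 to Lamc1 was the 1 ratio whose groups did not overlap in counts. Its log2 values were 1.12, 1.42 and 1.07 in Pkd1 KO kidneys 1 to 3, against 0.88, -0.073 and 0.95 in control kidneys 1 to 3. The difference was 0.61 (exact two-sided permutation p = 0.1, the smallest possible, and 0.48 after Benjamini-Hochberg adjustment). Without control kidney 2 it was 0.28, and in corrected levels 0.29. Nid1 has less GC than Lamc1 (50.4% against 53.0%) and fewer exonic bases (6943 against 8272).

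**Figure D4:**
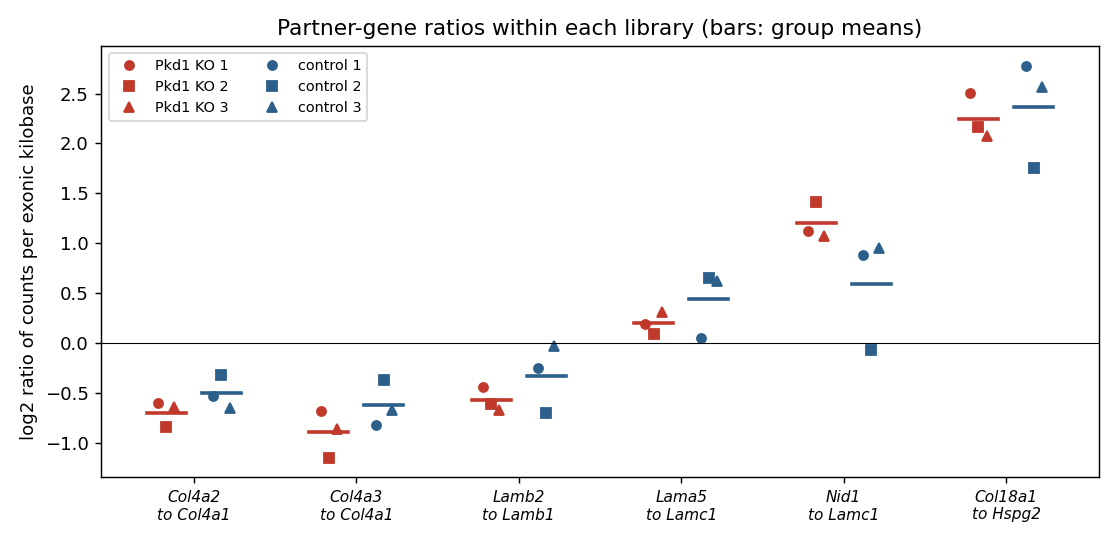
Log2 ratio of counts per exonic kilobase for 6 pairs of genes in each library, with Pkd1 KO left of control and bars at group means. Only for Nid1 to Lamc1 do all Pkd1 KO points, at 1.07 to 1.42, lie above all control points, at -0.073 to 0.95.

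The falls in counts were smaller without control kidney 2, and stayed called. That kidney was the highest control for 9 of the 10 genes, control kidney 3 the lowest control for all 10, and Pkd1 KO kidney 1 the lowest Pkd1 KO kidney for all 10. The summed level of the 10 genes was 407 to 523 CPM in Pkd1 KO kidneys and 689 to 1720.0 CPM in control kidneys. Without control kidney 2, 9 of the 10 genes were called lower, at log2 fold changes between -1.45 for Col18a1 and -0.59 for Lamc1. Without Pkd1 KO kidney 1, 4 of the 10 genes were called (Col4a3, Col18a1, Lamb1 and Lamb2). Calls over all genes, either way, numbered 8517 without control kidney 2 and 6213 without Pkd1 KO kidney 1, in place of 8579.

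By the distance between centred log2 CPM over the 6 libraries, the genes most like each other were Lamb1 and Hspg2, at a root mean square distance of 0.085. Col4a2 and Col4a3 followed at 0.116, and Col18a1 and Lamb2 were each other's nearest at 0.163. Nid1 stood furthest from the mean profile of the 10 genes, at 0.506. Among all other genes, those nearest to the mean profile were Ncoa6 and Magi1 at 0.045, Kat6a at 0.058, Dag1 at 0.060 and Epg5 at 0.068. Dag1 encodes dystroglycan, a receptor for laminin and perlecan. These 5 genes are also long, with 6357 to 10579 exonic bases, and their GC content is 47.5% to 52.8%.

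More of the other basement membrane components were lower than higher in counts. Of 29 tested, 17 were called lower and 2 higher, with a median log2 fold change of -0.75, and with GC and length fitted 4 were lower and 6 higher, with a median of -0.042. In all, 65.5% of the list was called either way, against 46.9% of all genes, and 34.5% with GC and length fitted, against 34.5% of all genes. Agrn, agrin, was called in opposite directions by the fits. It was lower in counts (-0.75 ± 0.26, edgeR adjusted p = 0.0405) and higher with GC and length fitted (0.43 ± 0.13, edgeR adjusted p = 0.0323). Lad1, ladinin, had 11.9, 8.69 and 7.51 CPM in Pkd1 KO kidneys 1 to 3, against 99.3, 98.2 and 64.4 CPM in control kidneys 1 to 3, a log2 fold change of -3.22 ± 0.24 (SE) with edgeR adjusted p = 0.00164 and -2.65 ± 0.19 with GC and length fitted. Ntn4, a netrin that disrupts laminin networks, had 29.0, 24.5 and 22.3 CPM in Pkd1 KO kidneys 1 to 3, against 99.6, 113 and 74.3 CPM in control kidneys 1 to 3. Both groups lay far apart, at -1.92 ± 0.19 (SE) with edgeR adjusted p = 0.00177, and -1.83 ± 0.17 with GC and length fitted. Lamb3, a beta chain of epithelial laminin, and Papln, papilin, had log2 fold changes of -1.75 ± 0.41 and -1.57 ± 0.30 in counts, and -0.96 ± 0.41 and -0.40 ± 0.21, past no threshold, with GC and length fitted. The 2 genes called higher were Sparc and Smoc2, related calcium-binding matrix proteins. Sparc, which binds collagen IV, had 336, 487 and 383 CPM in Pkd1 KO kidneys 1 to 3, against 188, 147 and 216 CPM in control kidneys 1 to 3, a log2 fold change of 1.13 ± 0.20 (SE) with edgeR adjusted p = 0.00355 and 1.33 ± 0.20 with GC and length fitted. Smoc2 was at 0.61 ± 0.19 and lost its call without Pkd1 KO kidney 2 or 3 (edgeR adjusted p = 0.0957 and 0.0979). Without Pkd1 KO kidney 1, 2 or 3, the count called in this list was 11, 9 and 12 in place of 19.

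Of 19 genes whose products fold, carry, modify or crosslink collagens, 8 were called lower and 1 higher, with a median of -0.31. With GC and length fitted 4 were lower and 0 higher. Thus 47.4% of the list was called either way, against 46.9% of all genes, and 21.1% with GC and length fitted, against 34.5% of all genes. P3h2, a collagen IV prolyl 3-hydroxylase, was at -1.82 ± 0.24 (SE) with edgeR adjusted p = 0.00234, and -1.62 ± 0.21 with GC and length fitted. Mia3, which loads large collagens into transport carriers, was at -0.98 ± 0.21 and -1.18 ± 0.21 in these fits, and Plod3, a lysyl hydroxylase, at -1.05 ± 0.15 and -0.29 ± 0.11, the second not called. Lox, lysyl oxidase, was the gene called higher, at 0.98 ± 0.29 (SE). Its call was lost without Pkd1 KO kidney 2, Pkd1 KO kidney 3 or control kidney 1 (edgeR adjusted p = 0.099, 0.0611 and 0.0818) and with GC and length fitted (adjusted p = 0.0532).

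Among 16 receptors, 7 were called lower and 1 higher, with a median of -0.47, and with GC and length fitted 3 were lower and 2 higher. Near the background, 50% of the list was called either way, against 46.9% of all genes, and 31.2% with GC and length fitted, against 34.5% of all genes. Ddr1, a collagen receptor kinase, was at -1.61 ± 0.22 (SE) with edgeR adjusted p = 0.00234, and -0.64 ± 0.12 with GC and length fitted. Dag1 had 51.7, 61.5 and 63.4 CPM in Pkd1 KO kidneys 1 to 3, against 130.2, 202 and 82.1 CPM in control kidneys 1 to 3. Its groups did not overlap, at -1.23 ± 0.29 (SE) with edgeR adjusted p = 0.00883, and -0.59 ± 0.20 with GC and length fitted. Plxnb2, a semaphorin receptor, was at -1.55 ± 0.23 in counts and -0.44 ± 0.12 with GC and length fitted. Itgb4, the laminin-binding integrin of hemidesmosomes, was at -1.54 ± 0.33 in counts and -0.28 ± 0.21, not called, with them. Cd151, a tetraspanin partner of laminin-binding integrins, was the gene called higher, at 0.65 ± 0.17, and lost its call without any 1 of the Pkd1 KO kidneys or control kidney 1 (edgeR adjusted p between 0.0503 and 0.0627).

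Proteases and inhibitors of basement membrane turnover were divided. Of 19 tested, 5 were called higher (Timp1, Mmp3, Mmp7, Ctss and Adamts5) and 3 lower (Mmp14, Mmp15 and Htra1), with a median of -0.13, and with GC and length fitted 5 were higher and 2 lower. Again near the background, 42.1% of the list was called either way, against 46.9% of all genes, and 36.8% with GC and length fitted, against 34.5% of all genes. Timp1, an inhibitor of metalloproteinases, had 1.68, 3.95 and 2.30 CPM in Pkd1 KO kidneys 1 to 3, against 0.563, 0.0865 and 0.314 CPM in control kidneys 1 to 3. Every Pkd1 KO library lay above every control, at 3.05 ± 0.56 (SE) with edgeR adjusted p = 0.00389, and 2.53 ± 0.52 with GC and length fitted. Mmp3, a stromelysin, was at 2.37 ± 0.40 and 1.75 ± 0.36 in these fits, and Mmp15, a membrane metalloproteinase, at -1.70 ± 0.23 and -0.66 ± 0.17. Ctss, a cathepsin of myeloid cells, was at 0.996 ± 0.23 and 0.28 ± 0.20, the second not called. Mmp14, the metalloproteinase that activates Mmp2, lost its call without Pkd1 KO kidney 1, Pkd1 KO kidney 2 or control kidney 1 (edgeR adjusted p between 0.0667 and 0.079).

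Interstitial matrix genes, which encode the fibrous matrix between tubules, were also divided. Of 16 tested, 7 were called lower and 4 higher (Col3a1, Dcn, Lum and Postn), with a median of -0.47. With GC and length fitted 1 was lower and 7 higher, and the median was 0.35. Here 68.8% of the list was called either way, against 46.9% of all genes, and 50% with GC and length fitted, against 34.5% of all genes. Col1a2 and Col6a3 were called lower in counts (-0.51 ± 0.18 and -0.62 ± 0.20, edgeR adjusted p = 0.0485 and 0.0292). Both were called higher with GC and length fitted (0.68 ± 0.21 and 0.50 ± 0.17, edgeR adjusted p = 0.0304 and 0.0475). Col3a1, a fibrillar collagen, had 52.3, 98.6 and 78.9 CPM in Pkd1 KO kidneys 1 to 3, against 46.0, 38.7 and 32.9 CPM in control kidneys 1 to 3. The groups did not overlap, at 0.97 ± 0.23 (SE) with edgeR adjusted p = 0.0101, and 1.80 ± 0.24 with GC and length fitted. Dcn, decorin, was at 1.07 ± 0.25 in counts and 0.42 ± 0.19 (edgeR adjusted p = 0.108) with GC and length fitted. Col6a2, a microfibrillar collagen, was at -1.11 ± 0.17 in counts and -0.20 ± 0.22 (edgeR adjusted p = 0.517) with GC and length fitted. Col5a2, another fibrillar collagen, was at -1.22 ± 0.36 and -0.56 ± 0.28 in these fits, the second not called, and its call in counts was lost without Pkd1 KO kidney 1, Pkd1 KO kidney 3 or control kidney 1 (edgeR adjusted p = 0.0856, 0.0749 and 0.0697). Lum lost its call without Pkd1 KO kidney 2 or 3 (edgeR adjusted p = 0.0642 and 0.0956). Postn lost its call without any 1 library except Pkd1 KO kidney 1, and its sign turned to -0.031 with GC alone fitted. Without Pkd1 KO kidney 1, 2 or 3, or control kidney 1, the count called in this list was 7, 7, 5 and 5 in place of 11.

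**Figure D5:**
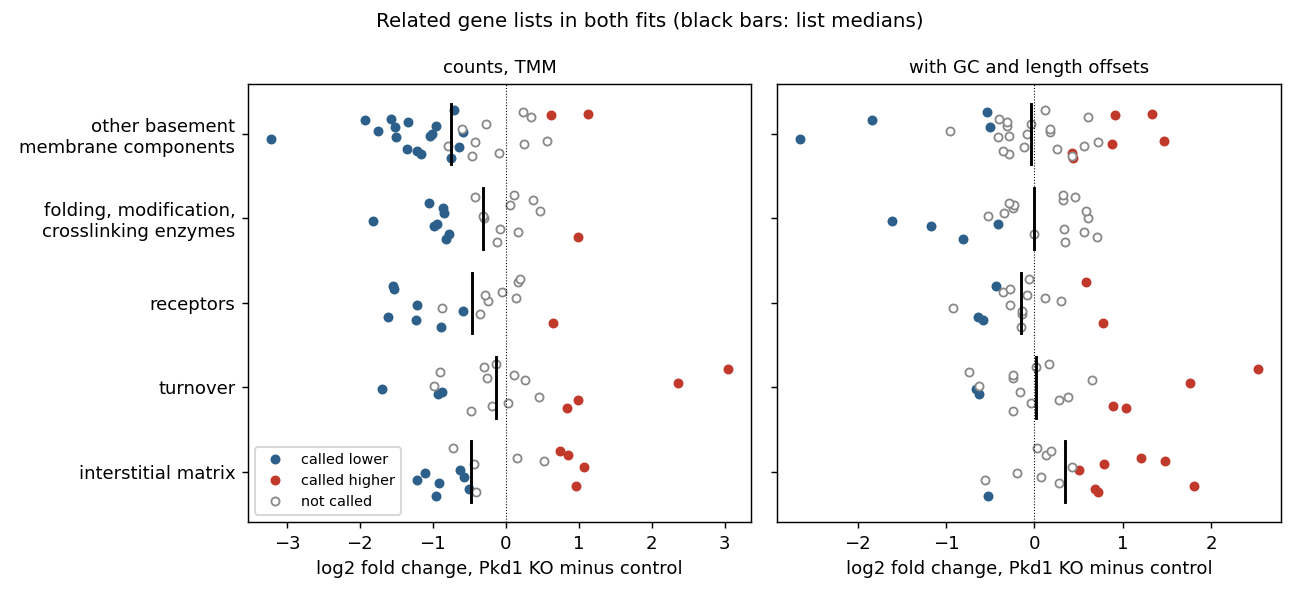
Log2 fold change (Pkd1 KO minus control) of each tested gene in 5 related lists, in counts (left) and with GC and length offsets (right), coloured by call, with bars at list medians. The medians of the other basement membrane components go from -0.75 to -0.042 and those of interstitial matrix genes from -0.47 to 0.35 between the panels; Mmp7, at 0 in all controls, is counted in its median but not drawn.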

How the data were processed

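RNA-seq of 6 whole mouse kidneys was analysed. Per the labels' protocols, total RNA was poly-A selected and reverse transcribed with random primers. The authors deposited 7 tables of raw counts, with no scaling. FastQC 0.11.8, cutadapt 4.0, STAR 2.6.1e and build GRCm39 are named in the submitters' processing notes. The gene annotation used for counting was not given in the sources used here. Counts without regard to strand were taken, as 49.1% to 50.0% of stranded reads lay on the first strand. The 2 runs of control 1 were summed as 1 replicate. The 4 lines that name no gene held 25.3% to 26.3% of reads in Pkd1 KO libraries and 22.9% to 23.8% in control libraries and were left out. No libraries differed by less than sampling noise. Replicates are separate samples per the labels, which do not say more of their animals. The p-values thus set the difference between groups against the spread between these samples.

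Genotypes were compared by edgeR's quasi-likelihood test (version 4.0.16, R 4.3.3) with filterByExpr, TMM and Benjamini-Hochberg adjustment at 0.05 over all genes tested. The common biological coefficient of variation was 21.4%. SE is the absolute log2 fold change over the square root of F. CPM is scaled by TMM library size. The GC and length fit adds, per library, a loess surface (span 0.3, degree 1, symmetric) of log2 CPM (prior count 2) relative to the gene mean on GC content of the longest transcript and log2 exon length. Symbols, exon lengths (union of exons) and GC came from GENCODE M21, an older build joined by identifier (52073 of 56923 matched). The fits were also run on simulated counts, with and without a trend on GC content and length. Changed genes were drawn at random there. Those runs cannot show how the fits treat changed genes that share GC content and length, as the 10 genes do. Alternatives were DESeq2 1.42.0, other scalings, filters, offsets, strand column and leaving out each library. Named were all 10 genes, the 5 genes nearest to their mean profile (mean log2 CPM of at least 2) and, in each of 5 related lists, up to 4 called genes with the largest absolute log2 fold change and a mean log2 CPM of at least 0. Genes named beyond that rule (Col4a4, Col4a5, Agrn, Sparc, Smoc2, Cd151, Mmp7, Adamts5, Mmp14, Htra1, Col1a2, Col6a3, Lum, Postn, Clic5, Slc34a1 and Lyz2) were chosen after their values were seen. The genes and lists were chosen with earlier results of these data known.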

Additional observations from a re-analysis of the deposited data

How the results depend on the processing

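Over the 10 genes and 17 alternatives to the count fit, 136 of 170 fold changes kept direction and call, 23 fell short of the threshold, 1 passed it (Nid1) and 10 turned sign, all with GC and length offsets. With these offsets, and with offsets and a replicate block together, the log2 fold change was 0.14 and 0.12 for Col4a1, 0.038 and 0.048 for Col4a2, 0.24 and 0.28 for Lama5, 0.14 and 0.13 for Nid1 and 0.22 and 0.21 for Hspg2. The genes called among the 10 numbered 2 in both, 4 with GC alone, and 4 to 10 when 1 library was left out, in place of 9. All genes called numbered 5399 with block and offsets and 5071 to 10318 without 1 library, in place of 8579. In the related lists, offsets gave 10 of the other basement membrane components in place of 19 (12 with GC alone, 11 with block and offsets, 9 to 23 without 1 library), 4 collagen folding, modification and crosslinking genes in place of 9 (3 with block and offsets, 7 to 12 without 1 library), 5 receptors in place of 8, and for interstitial matrix 5 with GC alone and 7 with block and offsets in place of 11 (5 to 12 without 1 library). Within the offset fit the count of 2 was 1 on the first strand column and 1 to 3 without 1 library. There, on alternatives partly chosen after seeing the data, the sign turned for Col4a1 (-0.070 without Pkd1 KO 2), Col4a2 (-0.095 without Pkd1 KO 2, -0.078 without control 3, -0.073 with a degree 2 surface), Lama5 (-0.0038) and Hspg2 (-0.14) with degree 2, Lamc1 (0.094 without control 2, 0.055 with longest transcripts) and Nid1 (-0.040 without Pkd1 KO 2). The log2 ratio of Lama5 to Lamc1 turned to 0.44 in corrected levels and that of Col18a1 to Hspg2 to 0.087 without control 1 (-0.43 to 0.087 without 1 library). Col4a5 turned to 0.067 under upper-quartile scaling, 0.42 with offsets, 0.15 with length alone, -0.22 to 0.00037 without 1 library (0.00037 without Pkd1 KO 1) and 0.41 with block and offsets, and Postn to -0.031 with GC alone. The cause was not tested. Upper-quartile scaling moved the median of all genes by 0.16 and gave 5274 higher and 3447 lower calls in place of 4148 and 4431. The replicate numbers are shared by the labels, but libraries of the same number did not deviate together (correlations 0.038, -0.084 and -0.029), and the replicate block alone called 7397 genes and 9 of the 10.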
